A study of Mus musculus with 4 samples.

Results

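RNA polymerase II does not travel along a gene alone. The PAF1 complex rides with the polymerase and is needed for ubiquitination of histone H2B, DSIF clamps the enzyme and turns from a pausing into an elongation factor once phosphorylated, FACT takes nucleosomes apart and puts them back behind the polymerase, and SPT6 rebuilds chromatin and binds IWS1. IWS1 in turn is known to bring Setd2, the enzyme that trimethylates lysine 36 of histone H3, to the elongating polymerase, so these factors stand close to the gene deleted here.

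The 10 genes Paf1, Ctr9, Cdc73, Leo1 and Rtf1 (PAF1 complex), Supt5 (DSIF), Supt6 and Iws1, and Supt16 and Ssrp1 (FACT) were taken by symbol from the table of 46517 genes, and each had 1 row. Their messenger RNA was measured in LSK cells, the bone marrow fraction that lacks lineage markers and carries Sca-1 and c-Kit, from C57BL/6 mice aged 8 to 10 weeks. The groups were Setd2f/f, described as wild-type for Setd2, and Setd2D/D, the knockout, with 2 libraries each. The labels leave out what deletes the gene, in which cells it is deleted, and whether mice were pooled. Since nothing says that libraries come from separate mice, p-values measure the spread between these libraries only, which may be technical. Levels are in TPM, a share of the transcripts in a library, which is corrected for transcript length and can be compared between genes. The tables hold no read totals, so the depth of each library is not known here.

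Setd2 itself measured 78.9 and 68.0 TPM in Setd2f/f against 43.4 and 49.5 TPM in Setd2D/D, a log2 change of -0.65 that did not pass limma over all genes (adjusted p = 0.329). The authors' deposited table calls it lower (log2 change -0.73, FDR 5.84e-06). These levels are of the gene as a whole, so transcripts that lack only a deleted part still count. Of 6 genes of the sorted LSK fraction, all reached 1 TPM in every library, with sums of 1679 and 1576 TPM in Setd2f/f and 1331 and 1234 TPM in Setd2D/D. The sort markers differed in direction, with Kit at 224 and 248.7 against 301 and 285 TPM and Ly6a (Sca-1) at 127.5 and 124 against 46.5 and 80.6 TPM. The sum of 8 erythroid markers was 106 and 154 TPM in Setd2f/f and 498 and 448 TPM in Setd2D/D. That of 8 granulocyte-monocyte markers was 2333 and 2890 against 3001 and 4516 TPM, but these markers differed in direction. Mpo was at 815 and 943 against 1427 and 1878 TPM, and Ltf at 54.9 and 75.3 against 14.15 and 40.95 TPM. For S100a8 the groups overlapped, at 278 and 286 against 161 and 375 TPM. B lineage markers (7 genes) summed to 452 and 257 TPM against 136 and 209 TPM. Cd79a was at 110 and 56.25 against 34.1 and 40.8 TPM, while Pax5 overlapped, at 17.4 and 9.33 against 18.8 and 14.8 TPM. Macrophage markers (5 genes) summed to 53.9 and 61.5 against 106 and 80.9 TPM, where Cd68 alone was at 26.1 and 33.7 against 77.1 and 57.3 TPM, while C1qa was at 7.92 and 7.07 against 4.22 and 5.13 TPM and C1qb at 7.72 and 6.40 against 5.60 and 6.18 TPM. The 5 megakaryocyte markers summed to 73.95 and 64.7 against 90.5 and 93.9 TPM and also differed in direction. Pf4 was at 13.3 and 11.2 against 36.7 and 43.2 TPM, and Itga2b at 46.2 and 39.0 against 25.8 and 31.9 TPM. For 6 stromal and endothelial markers the sums were 125 and 98.2 against 90.5 and 84.2 TPM. Of these 6 only Pecam1 and Emcn reached 1 TPM in every library. The T and NK cell sum (6 genes), 121 and 129.9 against 82.4 and 123 TPM, was nearly all Nkg7 (78.7 to 126 TPM), with Cd3e, Cd3d and Cd8a under 1 TPM in every library and Cd3g in 3 of 4. No marker of these lists was at 0 in all 4 libraries, and the part of this mixture in the levels given here was not tested. In such bulk samples, fewer cells of a type and less RNA per cell cannot be told apart.

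All 10 genes are protein-coding and lie on 7 chromosomes of GRCm38. Promoter windows of 300 bases (250 before and 50 after a transcript start, RefSeq on GRCm38.p6) matched 8 of the 10, Ssrp1 with 2 windows, and Ctr9 and Iws1 had none. The stretches below lie before the first exon in GENCODE and are shown for the FACT pair, for Paf1 and Cdc73, the members with the least similar profiles over the libraries, and for Supt5. They run 5′ to 3′ on the strand of the gene, with capitals for matches to the motifs named after them.
Paf1, chr7:28392801-28392950, plus strand: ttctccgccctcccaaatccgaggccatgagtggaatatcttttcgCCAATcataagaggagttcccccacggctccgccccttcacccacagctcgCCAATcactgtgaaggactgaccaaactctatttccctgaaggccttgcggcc
Cdc73, chr1:143702894-143703043, minus strand: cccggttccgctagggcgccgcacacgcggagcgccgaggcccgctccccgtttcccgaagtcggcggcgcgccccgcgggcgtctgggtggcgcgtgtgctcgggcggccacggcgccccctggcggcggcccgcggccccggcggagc
Supt5, chr7:28338747-28338896, minus strand: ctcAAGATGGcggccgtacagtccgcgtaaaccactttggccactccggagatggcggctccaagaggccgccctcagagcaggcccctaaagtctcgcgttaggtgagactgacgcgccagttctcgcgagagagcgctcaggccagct
Ssrp1, chr2:85036970-85037119, plus strand: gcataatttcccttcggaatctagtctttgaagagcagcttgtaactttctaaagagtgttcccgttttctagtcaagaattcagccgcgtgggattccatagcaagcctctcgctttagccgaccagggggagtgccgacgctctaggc
Supt16, chr14:52197417-52197489, minus strand: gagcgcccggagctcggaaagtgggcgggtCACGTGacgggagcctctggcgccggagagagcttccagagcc

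These windows were rich in CpG. The 9 windows held between 14 (Paf1) and 54 (Cdc73) CpG dinucleotides, all above the median of 7 over 32851 windows of all genes. No window held the TATA box TATAAA on either strand, which was present in 13.6% of all windows. The CCAAT box CCAAT was found 3 times in Paf1 and in no other member window, while 37.4% of all windows hold it, and the YY1 core AAGATGG in Supt5 only, against 6.34% of all windows. The E box CACGTG was in Supt16 (7.15% of all windows), the ETS motif CCGGAAG in Supt16 and Rtf1 (8.86%) and the NRF1 core TGCGCA in the second window of Ssrp1 (7.76%). Both strands were searched and no matches overlapped. A match describes letters and shows no binding, and a missing match says only that these letters are not in the window.

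Across the 4 libraries the level of the 10 genes spanned from a mean of 15.2 TPM for Iws1 to 394 TPM for Ssrp1, and 9 of the 10 lay above the median of 19.3 TPM of all genes tested. Ssrp1 stood above all others, followed by Paf1 (mean 93.4 TPM), Supt5 (90.9), Supt16 (79.2), Ctr9 (66.1), Supt6 (42.4), Rtf1 (41.0), Cdc73 (28.4), Leo1 (27.2) and Iws1. The order did not separate Paf1 from Supt5, Supt6 from Rtf1 or Cdc73 from Leo1, whose ranges over the libraries overlapped, the first of each pair being higher in 3 of 4 libraries. The other 6 neighbours in the order had ranges that did not overlap.

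**Figure D1:**
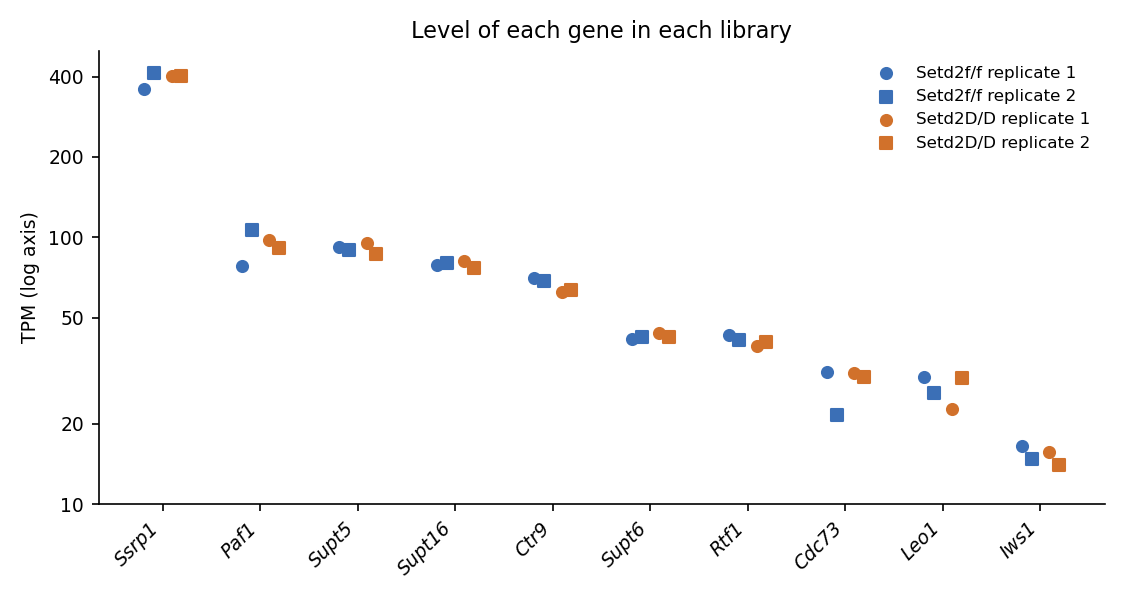
TPM of each of the 10 genes in each library on a log axis, ordered by mean level; blue points are Setd2f/f, orange points Setd2D/D, circles replicate 1 and squares replicate 2. The genotypes lie on top of each other for most genes, and the replicates are farthest apart for Paf1 and Cdc73 in Setd2f/f and for Leo1 in Setd2D/D.

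The design asks whether these elongation factor transcripts differ in Setd2D/D LSK cells. In a limma fit over 14755 genes with at least 1 TPM in at least 2 libraries, on log2(TPM + 1), 0 of 10 members were past an adjusted p of 0.05 and 0 had an unadjusted p under 0.05. The background was 0.0678% of all genes tested past the adjusted threshold and 11.2% with an unadjusted p under 0.05, so that a count of 0 in 10 is near the background and says little about the members. In the authors' deposited table also 0 of 10 were past an FDR of 0.05, where 3.15% of its 23955 genes were. That is a wider set of genes than the 14755 tested in limma, of which 706 had an authors' FDR under 0.05. The median change of the members was -0.00045 on the log2 scale, beside -0.063 over all genes tested, and the median size of change without its sign was 0.065 beside 0.24. Each of the 10 changes was smaller in size than that median over all genes. However, 9 of the 10 members lay above the median level of all genes tested. They were not compared with genes of like level, so the part of level in these small changes was not tested. The smallest p an exact permutation test allows at this size is 0.33, and a missed threshold does not show equal levels, so the 95% intervals (single-gene, not adjusted for their number) matter more. They ran at their widest down to -0.62 (Leo1) and up to 0.81 (Cdc73), so a change of 1 on the log2 scale, up or down, lay outside the interval of each member.

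**Figure D2:**
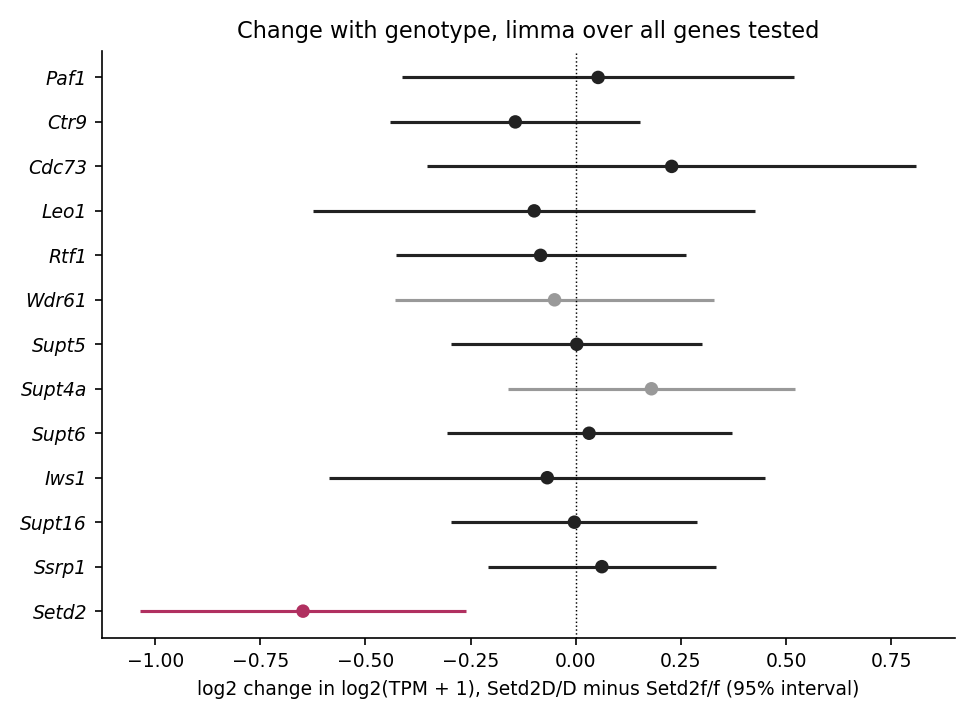
Change of each gene on the log2(TPM + 1) scale (Setd2D/D minus Setd2f/f, points) with its 95% interval from limma (lines), in black for the 10 members, grey for the partner subunits Wdr61 and Supt4a, and red for Setd2. The intervals of all members and partners cover 0, and that of Setd2, from -1.04 to -0.26, does not; its limma adjusted p was 0.329, and its FDR 5.84e-06 in the authors' deposited table.

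In the PAF1 complex, Paf1 and Ctr9 make up the core on which the other subunits assemble. Paf1 (ENSMUSG00000003437, GRCm38 chromosome 7, 28392951 to 28399388) was at 78.1 and 106.2 TPM in Setd2f/f against 98.0 and 91.1 TPM in Setd2D/D. Both knockout values fell between the Setd2f/f values, and the log2 change was 0.05 (SE 0.18, 95% interval -0.41 to 0.52, limma adjusted p = 0.941).

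Ctr9 (ENSMUSG00000005609, chromosome 7, 111028951 to 111056377), the large scaffold subunit with tetratricopeptide repeats, was at 70.3 and 68.7 TPM in Setd2f/f against 62.1 and 63.4 TPM in Setd2D/D. Here the replicates lay close together and the groups did not overlap. The mean was 69.5 ± 1.13 TPM (SD, n = 2) against 62.8 ± 0.919 TPM, a ratio of 0.904. The log2 change of -0.14 (SE 0.11, interval -0.44 to 0.15) did not pass limma (adjusted p = 0.668), and the authors' deposited table gives -0.12 with an FDR of 0.840.

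Cdc73 (ENSMUSG00000026361, chromosome 1, 143598800 to 143702893), which encodes parafibromin, a tumour suppressor in parathyroid tissue, had the largest fitted change of the 10. Its values were 31.2 and 21.5 TPM in Setd2f/f and 31.0 and 30.1 TPM in Setd2D/D. Only Setd2f/f replicate 2 was apart, and the other 3 libraries lay between 30.1 and 31.2 TPM. The log2 change of 0.23 (SE 0.22, interval -0.35 to 0.81, limma adjusted p = 0.732) turned to -0.029 without Setd2f/f replicate 2. The authors' deposited table gives 0.10 with an FDR of 0.876.

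Leo1 (ENSMUSG00000042487, chromosome 9, 75441524 to 75466432), a subunit that pairs with the PAF1 protein, was at 29.9 and 26.2 TPM in Setd2f/f against 22.8 and 29.8 TPM in Setd2D/D. The groups overlapped, with the lowest value in Setd2D/D replicate 1, and the log2 change was -0.10 (interval -0.62 to 0.43), turning to 0.087 without that library. Rtf1 (ENSMUSG00000027304, chromosome 2, 119675068 to 119735407), which contacts DSIF and carries the module that stimulates H2B ubiquitination, was at 43.1 and 41.4 TPM in Setd2f/f against 39.2 and 40.4 TPM in Setd2D/D. Its groups did not overlap but differed by little, at 42.3 ± 1.24 TPM against 39.8 ± 0.891 TPM, and the log2 change of -0.08 (interval -0.43 to 0.26) did not pass limma (adjusted p = 0.846). Ctr9 and Rtf1 were the 2 of 10 members whose groups did not overlap, a pattern seen in 44.3% of all genes tested.

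Summed over its 5 genes, the PAF1 complex was at 253 and 264 TPM in Setd2f/f against 253 and 255 TPM in Setd2D/D. Relative to its level, the sum varied less over the libraries than each of its 5 genes. In TPM this did not hold for every gene. A sum evens out the spread of its parts, and whether the genes offset each other was not tested. Paf1 made up 30.9% and 40.2% of the sum in Setd2f/f and 38.7% and 35.8% in Setd2D/D. Cdc73 made up 12.3% and 8.16% in Setd2f/f and 12.2% and 11.8% in Setd2D/D. Setd2f/f replicate 2 held the highest Paf1 share and the lowest Cdc73 share of the 4. Ctr9 took between 24.5% and 27.8%, Rtf1 between 15.5% and 17.1% and Leo1 between 9.003% and 11.8%.

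**Figure D3:**
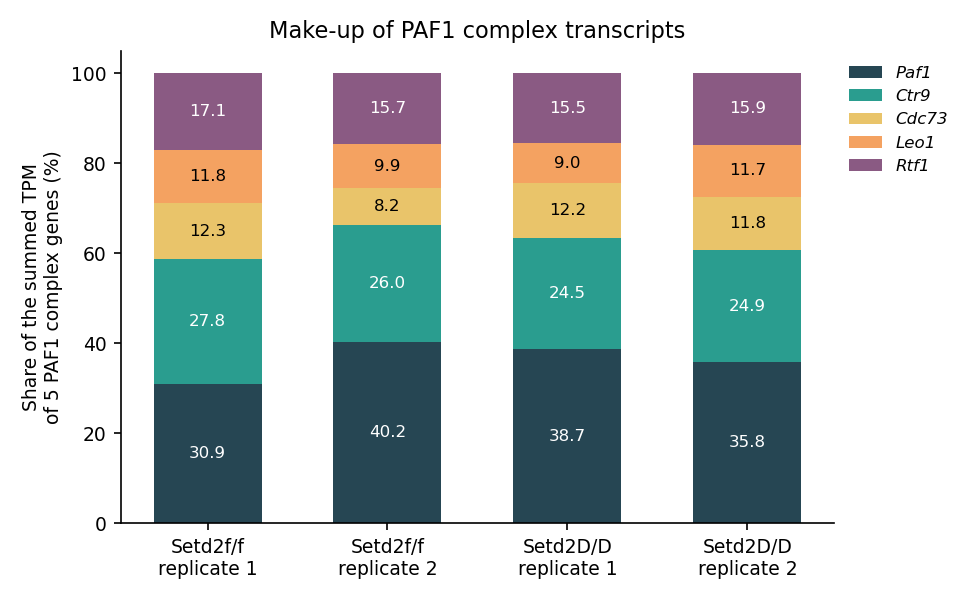
Share of each of the 5 genes in the summed TPM of the PAF1 complex, 1 bar per library, with the percentage written in each segment. The Paf1 segment is smallest in Setd2f/f replicate 1 (30.9%) and largest in Setd2f/f replicate 2 (40.2%), with both Setd2D/D libraries between them.

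DSIF pairs the large subunit SPT5, whose C-terminal repeats are phosphorylated by P-TEFb, with the small subunit SPT4. Supt5 (ENSMUSG00000003435, chromosome 7, 28314891 to 28338746) was at 91.6 and 89.95 TPM in Setd2f/f against 95.5 and 86.6 TPM in Setd2D/D. The knockout values lay on either side of the Setd2f/f values, and the log2 change of 0.0024 (SE 0.11, interval -0.30 to 0.30) was the smallest of the 10.

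SPT6 is a histone chaperone that binds the polymerase through its linker. Supt6 (ENSMUSG00000002052, chromosome 11, 78206746 to 78245987) was the steadiest member, at 41.6 and 42.4 TPM in Setd2f/f against 43.7 and 42.1 TPM in Setd2D/D. Its highest library exceeded its lowest by a ratio of 1.05, and the log2 change was 0.03 (SE 0.13, interval -0.31 to 0.37). Iws1 (ENSMUSG00000024384, chromosome 18, 32067741 to 32104328), the SPT6 partner linked to Setd2 recruitment, was the lowest of the 10 at 16.5 and 14.7 TPM in Setd2f/f against 15.7 and 14.1 TPM in Setd2D/D. Its groups overlapped, with a log2 change of -0.07 (SE 0.20, interval -0.59 to 0.45). In terms of TPM + 1, a lower Iws1 level, down to 0.666 of that in Setd2f/f, thus lay within its interval. So did a higher level, up to 1.37 times.

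FACT is a heterodimer of SPT16 and SSRP1. Supt16 (ENSMUSG00000035726, chromosome 14, 52160414 to 52197416) was at 78.5 and 80.0 TPM in Setd2f/f against 81.5 and 76.7 TPM in Setd2D/D, with overlapping groups and a log2 change of -0.0033 (interval -0.30 to 0.29). The sign of this value changed to plus after each of 3 rescalings of the libraries, where it was at most 0.045. Ssrp1 (ENSMUSG00000027067, chromosome 2, 85037234 to 85047109), which carries the HMG box of the dimer, was at 361 and 411 TPM in Setd2f/f against 401 and 403 TPM in Setd2D/D. The knockout values fell between the Setd2f/f values, and the log2 change was 0.06 (SE 0.10, interval -0.21 to 0.33).

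Ratios between subunits within a library do not change when the library is multiplied by a common factor. Quantile normalization can change them. Ssrp1 transcripts outnumbered those of Supt16 by 4.60 and 5.14 times in Setd2f/f and by 4.92 and 5.26 times in Setd2D/D. Supt6 exceeded Iws1 by 2.52 and 2.88 times in Setd2f/f and by 2.79 and 2.999 times in Setd2D/D. For Cdc73 the ratio to Paf1 was 0.399 and 0.203 in Setd2f/f and 0.316 and 0.33 in Setd2D/D, so the knockout libraries were close to each other while the Setd2f/f libraries marked both extremes. Of 8 ratios compared (these 3, Ctr9, Leo1, Rtf1 and Wdr61 to Paf1, and Supt4a to Supt5), the genotypes overlapped in all 8. Exact 2-sided permutation tests gave p of 0.67 or 1 before adjustment and 0.89 or more after Benjamini-Hochberg adjustment over the 8. With 2 libraries per genotype such a test cannot go below 0.33, so no ratio could have passed whatever its difference. The difference between genotypes changed sign without Setd2f/f replicate 1 for Ssrp1 to Supt16 (-0.015) and for Ctr9 (0.038), Leo1 (0.16) and Rtf1 (0.11) to Paf1. It also changed sign without Setd2f/f replicate 2 for Cdc73 to Paf1 (-0.31) and without Setd2D/D replicate 1 for Leo1 to Paf1 (0.089).

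The replicates of most members were close. The SD of log2(TPM + 1) within genotype had a median of 0.082 over the 10, beside 0.22 over all genes tested, and lay under that value in 8 of 10. The exceptions were Cdc73 (0.26) and Paf1 (0.23), followed by Leo1 (0.21). These were also the members with the lowest mean log2 CPM, a share of reads not corrected for length, in the authors' deposited table, at 6.15 for Cdc73, 6.36 for Paf1 and 5.25 for Leo1. The other 7 had a log2 CPM between 6.59 and 9.16 and an SD of at most 0.11. The part of the number of reads in the spread was not tested, and the members were not compared with genes of like level.

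**Figure D4:**
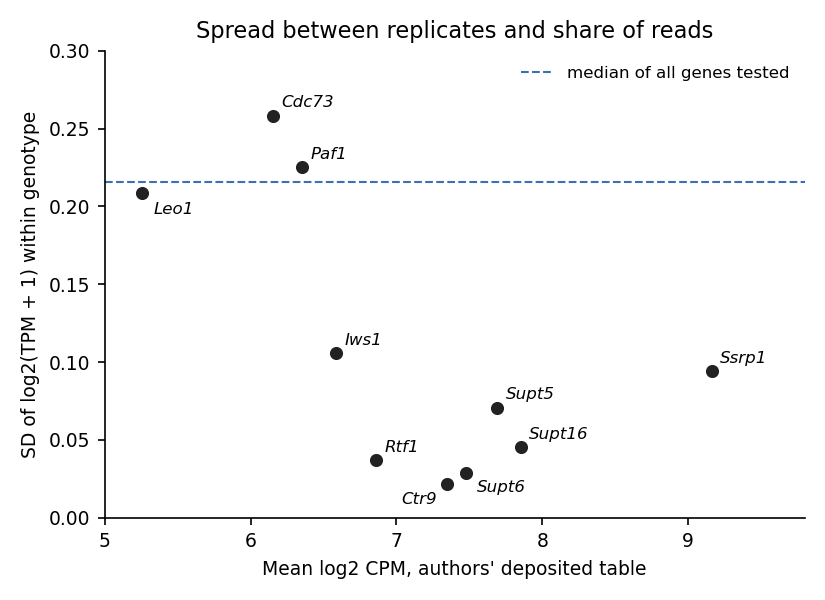
SD of log2(TPM + 1) within genotype against the mean log2 CPM of the authors' deposited table, 1 point per member; the dashed line is the median SD of all genes tested (0.22). Leo1, Cdc73 and Paf1 lie at the left with an SD of at least 0.21, and the other 7 lie at or below 0.11.

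Profiles over the 4 libraries were compared by the root mean square difference of mean-centred log2(TPM + 1) values. Of 45 pairs of members Supt6 and Supt16 were closest (0.022) and Paf1 and Cdc73 farthest apart (0.35). Cdc73 had the largest SD over the libraries (0.25). Among 10095 protein-coding genes with a mean of at least 5 TPM, the genes nearest to it were Hnrnpu (0.012), Ints12 (0.034) and Rgs1 (0.034). Hnrnpu, which encodes a nuclear RNA-binding protein, was at 195 and 136 TPM in Setd2f/f against 197 and 190 TPM in Setd2D/D, so it too was low in Setd2f/f replicate 2 only. With 4 libraries and many candidates, a near match is a description of these libraries.

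Other genes of the elongation machinery were read beside the members. Wdr61, the PAF1 complex subunit shared with the SKI complex, was at 76.3 and 87.7 TPM in Setd2f/f against 72.9 and 85.6 TPM in Setd2D/D, with overlapping groups (log2 change -0.05). Supt4a, which encodes the small DSIF subunit, was at 84.8 and 93.9 TPM in Setd2f/f against 94.3 and 108.6 TPM in Setd2D/D, a log2 change of 0.18 (interval -0.16 to 0.52, limma adjusted p = 0.638). Of the polymerase itself, Polr2a was at 103 and 109 TPM in Setd2f/f against 106 and 103 TPM in Setd2D/D, and Polr2b at 59.9 and 81.9 against 66.9 and 57.7 TPM.

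NELF holds the paused polymerase, and 0 of its 4 genes passed limma in either direction (median log2 change 0.02, 2 above 0). Nelfe was at 59.5 and 59.5 TPM in Setd2f/f against 84.1 and 64.0 TPM in Setd2D/D (log2 change 0.30), and Nelfcd at 70.3 and 71.2 against 54.9 and 66.8 TPM (-0.22). The 5 genes listed for H2B ubiquitination, the mark that depends on the PAF1 complex, had a median of 0.05 and 0 past the threshold. Among them Rnf20, an E3 ligase, was at 57.2 and 55.3 TPM in Setd2f/f against 65.4 and 66.1 TPM in Setd2D/D (log2 change 0.22, interval -0.08 to 0.53), and Wac, which links that ligase to the polymerase, at 109 and 99.96 against 102 and 83.6 TPM.

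Of 7 genes for TFIIS, elongin and ELOF1, 6 were tested and 0 passed (median -0.02), while Tcea3 was listed at 0 in every library. Elof1, a small factor that binds elongating polymerase, was at 90.1 and 82.4 TPM in Setd2f/f against 67.9 and 74.5 TPM in Setd2D/D (log2 change -0.27, interval -0.59 to 0.05), and Tcea1, the general TFIIS gene, at 97.8 and 93.8 against 91.3 and 89.6 TPM. Among 16 histone chaperones and CHD remodellers 0 passed (median -0.05, 10 below 0). The remodeller gene Chd2 was at 52.8 and 41.8 TPM in Setd2f/f against 33.0 and 36.8 TPM in Setd2D/D (log2 change -0.42, interval -0.88 to 0.04, but -0.097 with an FDR of 0.883 in the authors' deposited table), and Anp32e, which encodes a chaperone of H2A.Z, at 387 and 385 against 345 and 320 TPM.

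The PAF1 complex is known to act with MLL proteins at HOX genes in blood cells. The list read here holds 4 HOX genes and the cofactor genes Meis1 and Pbx3. Its median log2 change was -0.41, with 4 members below 0 and 2 above. None of the 6 passed the adjusted threshold in limma or in the authors' deposited table, and 2 had an unadjusted p under 0.05, as had 11.2% of all genes tested. Hoxa9 was at 112 and 102 TPM in Setd2f/f against 83.5 and 74.9 TPM in Setd2D/D, a log2 change of -0.43 (interval -0.75 to -0.11, limma adjusted p = 0.394). Hoxa10 was at 20.8 and 13.8 TPM in Setd2f/f against 9.94 and 9.12 TPM in Setd2D/D, a log2 change of -0.77 (interval -1.48 to -0.06, adjusted p = 0.428). In each of the 4 HOX genes both knockout libraries lay below both Setd2f/f libraries, as in 27.6% of all genes tested. These 4 genes lie in 1 cluster on chromosome 6 (52201754 to 52240854) and cannot be counted as independent. The list was also chosen with earlier results of these data known, so the count gives no support for a shared change. The fitted changes of the cofactor genes were above 0, with Meis1 at 101 and 93.6 TPM in Setd2f/f against 122 and 101 TPM in Setd2D/D (log2 change 0.19, groups overlapping) and Pbx3 at 7.28 and 7.49 against 8.77 and 9.97 TPM (0.30, groups not overlapping). For Pbx3 the authors' deposited table has the opposite sign, -0.30 with an FDR of 0.885.

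**Figure D5:**
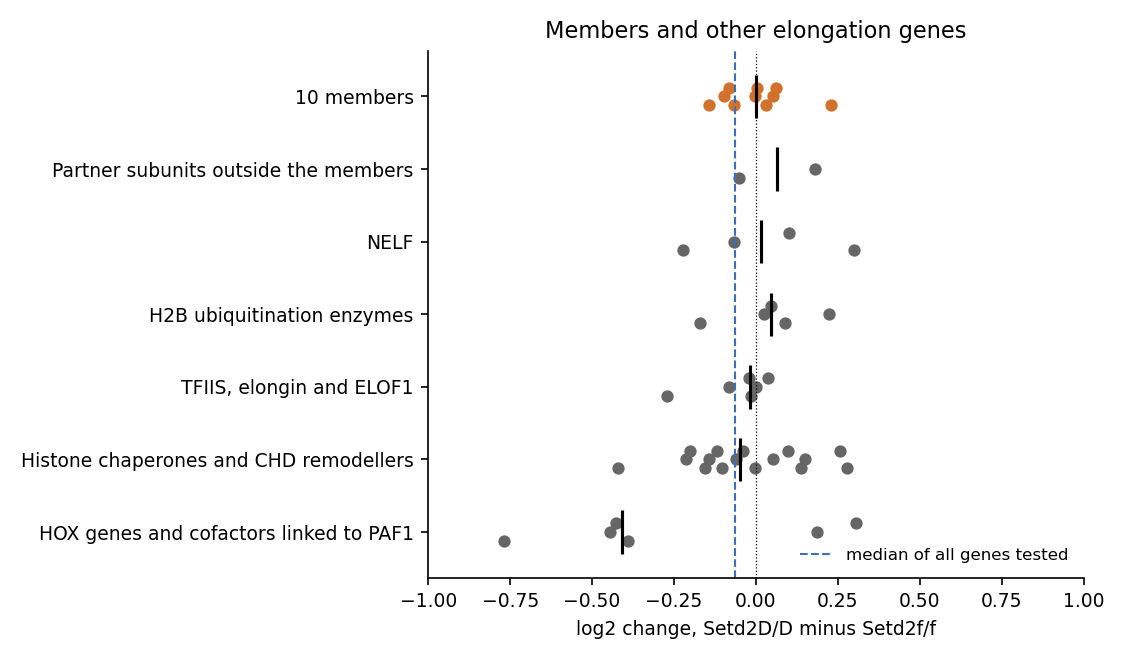
Log2 change (Setd2D/D minus Setd2f/f) of each tested gene in the 10 members (orange) and in 6 other lists (grey), with the median of each list as a black bar and the median of all genes tested (-0.063) as a dashed line. The members lie between -0.14 and 0.23, and the HOX list reaches -0.77.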

How the data were processed

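The authors deposited TPM values for 46517 genes in 4 libraries, and a comparison table with a fold change as a ratio, log2 values (fold change and mean log2 CPM), an F score, p-values and FDR for 23955 genes. cutadapt, RSEM, edgeR and mm10 are named without versions or roles, per the submitters' processing notes. Whether strand was kept is not given in the sources used here. Fields shifted by a comma in a gene name were joined (5 and 2 rows). TPM holds no counts, so limma 3.58.1 (R 4.3.3) was fitted to log2(TPM + 1) of genes with TPM of at least 1 in 2 libraries, with 1 genotype term, a 2-sided test on variances moderated along an abundance trend, and p-values adjusted by Benjamini-Hochberg over 14755 genes with 0.05 as threshold. The fit was tested on simulated data. Fold changes understate those of low genes.

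Members and lists were chosen with earlier results of these data known. Named were all members and partner subunits, the polymerase genes, per list the 2 smallest p with a mean of at least 1 TPM, and the 3 genes most like the most variable member. Neighbouring genes were named after their values were seen. Positions come from GENCODE M21 (GRCm38, which is mm10). Transcripts were compared with minimap2 2.31. Of the listed genes, Supt4b was not analysed here.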

Additional observations from a re-analysis of the deposited data

How the results depend on the processing

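In limma 0 of 10 members passed under any of the 14 alternatives, with a lowest adjusted p of 0.445 and 0 members at an unadjusted p under 0.05. Of the 10 that kept all libraries, 5 (filters, variance settings and the block) leave each change as it is by construction. Under the other 5 alternatives, 46 of 50 member changes kept their direction. Those that reversed were near 0: Iws1 at 0.020 with quantile normalization, and Supt16 at 0.023 with trimmed means of M values, 0.045 with median-of-ratios factors and 0.040 with quantile normalization. The members' median moved to 0.048 with median-of-ratios factors and 0.042 with quantile normalization. The median over all genes tested also moved up, from -0.063 to -0.018 and -0.0035. When each library was left out in turn, the lone library of a genotype being assumed to vary like the other pair, the change ranged from -0.17 to 0.27 for Paf1 (below 0 without Setd2f/f replicate 1), from -0.029 to 0.49 for Cdc73, from -0.29 to 0.087 for Leo1, from -0.067 to 0.072 for Supt5, from -0.14 to 0.0091 for Iws1, from -0.047 to 0.040 for Supt16 and from -0.032 to 0.16 for Ssrp1. The median of the members ranged from -0.023 to 0.049. The difference in log2 ratio ranged from -0.015 to 0.15 for Ssrp1 to Supt16, and for ratios to Paf1 from -0.44 to 0.038 for Ctr9, -0.31 to 0.67 for Cdc73, -0.48 to 0.16 for Leo1 and -0.39 to 0.11 for Rtf1. Over all genes, 10 passed, against 3 with a pseudocount of 0.1, 0 with no filter, 19 without the variance trend and 0 when any library was left out; the cause was not tested. With the replicate block 0 genes passed and 1508 had an unadjusted p under 0.05. Same-numbered libraries deviated from their group means with a correlation of 0.041 across genes, so the numbers do not show pairing. Over all genes tested, log2(TPM + 1) correlated at 0.959 between the Setd2f/f libraries but at 0.912 between the Setd2D/D libraries. Pairs of different genotype lay between 0.910 and 0.942, so the Setd2D/D libraries were no more alike than libraries of different genotype. Every pair with Setd2D/D replicate 1 lay between 0.910 and 0.913, so this library stood apart. Setd2D/D replicate 2 correlated at 0.934 and 0.942 with the Setd2f/f libraries. With no filter 2035 genes and without a library between 554 and 2928 had an unadjusted p under 0.05. With no read totals, the sampling error of each level cannot be given.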

Other observations

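Some members share ground with a neighbouring gene, named here after its values were seen. No other gene had a transcript with at least 200 aligned bases at 90% identity to a member, apart from 4 genes that overlap a member on the opposite strand. Since it is not known whether strand was kept, reads in the shared stretches cannot be told apart. The 3′ part of Supt16 shares 986 transcript bases with Rpgrip1, a gene best known from photoreceptors. Rpgrip1 was at 21.4 and 21.8 TPM in Setd2f/f against 11.8 and 10.1 TPM in Setd2D/D, a log2 change of -0.92 (95% interval -1.44 to -0.41) that did not pass limma over all genes (adjusted p = 0.302), beside a Supt16 change of -0.0033. In the authors' deposited table Rpgrip1 has a log2 change of -0.69 and an FDR of 0.116.

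Supt6 shares 242 bases at its start with Sdf2, an endoplasmic reticulum protein gene at 66.9 and 62.2 TPM in Setd2f/f against 76.6 and 72.8 TPM in Setd2D/D (log2 change 0.21, limma adjusted p = 0.560). Paf1 and the Mediator subunit gene Med29 start 243 bases apart on opposite strands. Med29 was at 15.0 and 13.9 TPM in Setd2f/f against 15.3 and 18.3 TPM in Setd2D/D (log2 change 0.20, adjusted p = 0.747). Ssrp1 overlaps P2rx3 on the opposite strand by 229 bases, with starts 228 bases apart. P2rx3 was at 1.73 and 1.90 TPM in Setd2f/f against 1.10 and 1.67 TPM in Setd2D/D. Supt5 overlaps the antisense gene Gm44709, for which no level was at hand. Cdc73 overlaps B3galt2, which did not exceed 0.50 TPM in any library, and the processed pseudogene Gm6397. Setd2f/f libraries list Gm6397 at 0 TPM, while Setd2D/D replicates 1 and 2 had 1.98 and 1.71 TPM (limma adjusted p = 0.390, FDR of 0.105 in the authors' deposited table). These values lie near the filter of 1 TPM in 2 libraries. Gm6397 passed that filter only through the Setd2D/D libraries, so its limma p gives no support for a difference.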
